A study of Mus musculus with 4 samples.

Results

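The genes described here encode the cytosolic and mitochondrial heat shock proteins, the DnaJ (Hsp40) cochaperones that work with Hsp70, the Bag proteins, the Hsp90 partners Stip1, Ahsa1 and Ahsa2, and Hsf1, the transcription factor of the heat shock response. They were chosen by symbol, with earlier results of these data known, which gave 60 of the 12021 genes in the deposited count table. The rule left out 5 endoplasmic reticulum (ER) chaperone genes that are also in the table, namely Hspa5, Hsp90b1, Dnajb9, Dnajb11 and Dnajc3. Expression was measured by RNA sequencing in 2 libraries of natural killer T (NKT) cells stimulated on plates coated with tetramers of mouse CD1d that held the lipid PBS57, and in 2 libraries of NKT cells kept resting. NKT cells are T lymphocytes whose receptor recognises lipids presented by CD1d. Per the labels, all 4 libraries came from C57BL/6 mice of 10 to 12 weeks with the genotype Va14 Tg.cxcr6gfp/+, that is, with a transgenic NKT receptor chain and GFP at one Cxcr6 allele, and the cells were sorted as GFPhi. Resting cells thus carried the same transgene and reporter as stimulated ones. Liver is the labelled tissue, although the protocol texts also mention spleens as a source of sorted cells and islets as a source of RNA. No source used here gives the promoter of the transgene, any pooling of mice or the time of stimulation. The comparison asks which transcripts differ in NKT cells before and after stimulation.

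Chaperones hold, fold and refold other proteins. Hsp70 binds exposed hydrophobic stretches in a cycle of ATP hydrolysis, which DnaJ proteins start through their J domain and which nucleotide exchange factors (the Hsp110 proteins, several Bag proteins and Hspbp1) end. Clients such as kinases and steroid receptors pass from Hsp70 to Hsp90 over the adaptor Stip1, and Ahsa1 speeds the ATPase of Hsp90. Hsf1 drives the inducible members under heat or proteotoxic stress, and T cells are known to raise several chaperones when they are activated and begin to grow.

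Library totals ran from 5398551 to 5495521 counts in tetramer libraries and from 4168438 to 4433048 in resting libraries, which are called 4 and 5 after their column names. Levels are in CPM, read counts relative to a TMM-scaled library size (TMM is edgeR's scaling for library composition). Across genes, which are not independent replicates, Pearson's r of log2 CPM was 0.956 between the tetramer libraries and 0.926 between the resting ones. All 10 markers of NKT and T cells were in the table, with a summed level of 4518 and 4631 CPM in tetramer libraries and 3748 and 3579 CPM in resting libraries. Without Ifng, the cytokine interferon gamma, the sums of the other 9 overlapped, at 3030 and 3869 CPM in tetramer libraries and 3733 and 3557.5 CPM in resting libraries. Cxcr6, the reporter locus, had 414 and 718 CPM in tetramer libraries, against 1617 and 1102 CPM in resting libraries, and Klrb1c, the receptor NK1.1, had 2.86 and 13.6 CPM in tetramer libraries, against 114 and 174 CPM in resting libraries. Cd3d went the other way, with 653 and 737 CPM in tetramer libraries, against 295 and 466.5 CPM in resting libraries. Thy1, Zbtb16 and Tbx21 were likewise higher in both tetramer libraries, while Cd3e, Cd3g and Il2rb overlapped. Summed erythroid markers (5 of 6 in the table) lay at 35.8 and 80.7 CPM in tetramer libraries, against 145.8 and 409.9 CPM in resting libraries 4 and 5. Summed markers of B cells (5 of 6), myeloid cells (4 of 9), endothelium (1 of 5) and hepatocytes (2 of 8) stayed at or below 32.8 CPM in each tetramer library and at or below 75.0 CPM in each resting library, and all were lower in both tetramer libraries. No gene of the table has a count below 1, so markers such as Alb and Clec4f, which are not among its genes, are not analysed here. The part of other cells in the results was not tested. Separate mice or cultures behind the libraries are not stated, and p-values therefore cover the spread between libraries alone, which could be technical. In such bulk RNA a lower level can mean fewer cells of a type or less RNA per cell, and these cannot be told apart.

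Stimulated NKT cells had more transcript of both cytosolic Hsp90 genes, of the constitutive and the mitochondrial Hsp70, of 2 of 3 Hsp110 genes and of the partners Hspbp1, Stip1 and Ahsa1. Of the 60 members, 57 passed edgeR's expression filter and were tested; 14 were higher in tetramer libraries and 1 was lower at an adjusted p below 0.05 (edgeR's quasi-likelihood test, Benjamini-Hochberg over 11312 genes). Of the tested members 24.6% were thus called higher and 1.75% lower, against 14.3% and 12.1% of all tested genes (26.4% in either direction). The median log2 fold change (tetramer over resting) was 0.51 over the 57 members and -0.06 over all genes. With library totals in place of TMM factors the median of all genes moved to -0.35, and the members' calls split into 12 higher and 3 lower instead of 14 and 1 (21.1% and 5.26%, beside 10.5% and 19.9% of all genes). Without tetramer library 4 the members called were 9 higher and 0 lower, beside 5.33% and 2.68% of all genes, and without tetramer library 5 they were 10 and 0, beside 9.89% and 5.75%. Resting library 5 also decided the calls that were lower. Without it there were 0, beside 10.5% of all genes, and without resting library 4 there were 4 (Hspa1a, Hspa1b, Hspb7 and Hspb11), or 6.78% of the members tested, beside 12.7%.

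**Figure D1:**
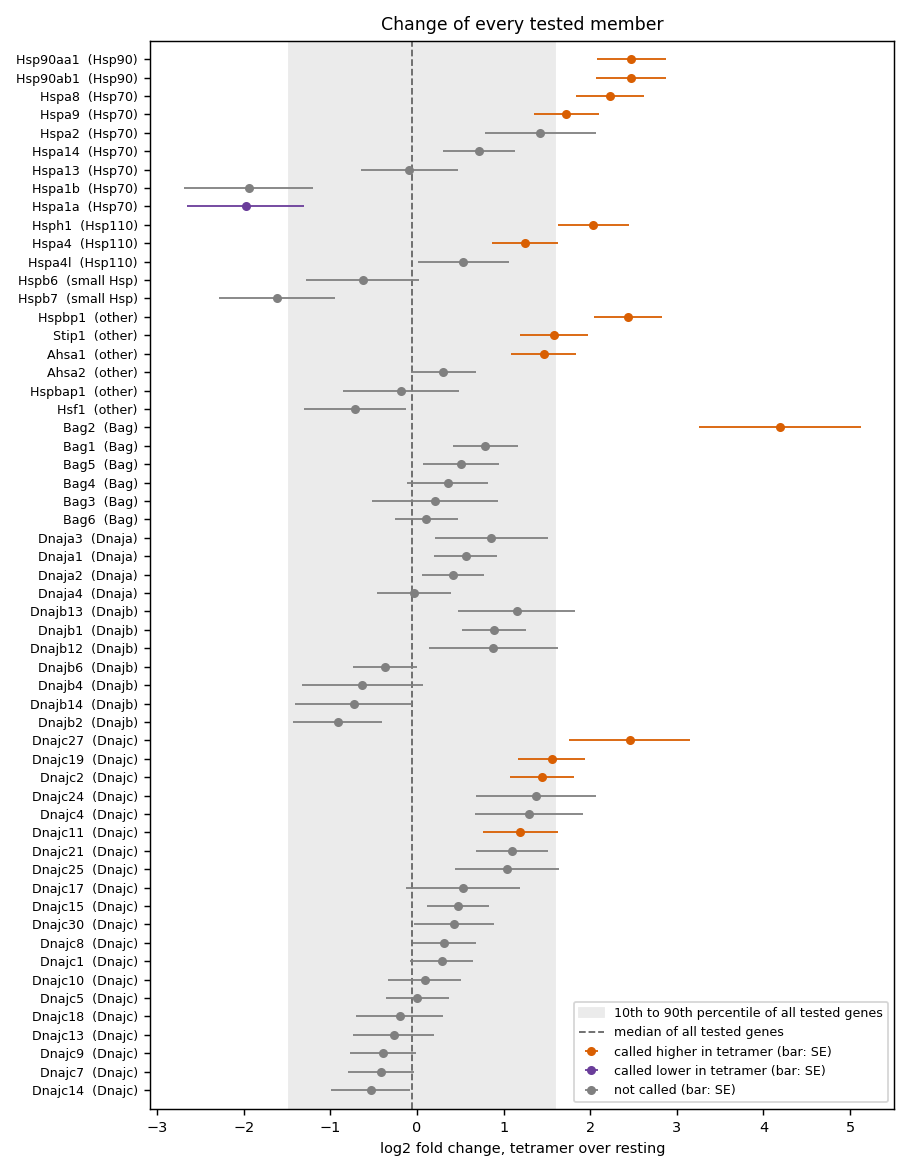
Log2 fold change (tetramer over resting, x axis) of each of the 57 tested members, grouped by role, with its standard error as a bar. Orange marks the 14 called higher, purple the 1 called lower (Hspa1a) and grey the others; the shaded band holds the central part of all tested genes, from the 10th to the 90th percentile, and the dashed line is their median.

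In both tetramer libraries 34 tested members lay above both resting libraries and 8 lay below them, while 15 overlapped. These are 59.6% and 14.0% of the members, against 31.6% above and 33.7% below over all tested genes. Of the 19 members with a mean of at least 100 CPM, 8 were called higher, where 25.4% of all genes that abundant were called higher and 12.1% lower. Of the other 38, 6 were called higher (15.8%) and 1 lower, near the 12.3% of all genes under 100 CPM that were called higher and below the 12.1% called lower.

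The cytosolic Hsp90 pair rose evenly. Hsp90aa1, the stress-inducible isoform, had 2679 and 2656 CPM in tetramer libraries 4 and 5, against 443 and 517 CPM in resting libraries 4 and 5. Hsp90ab1, the constitutive isoform, had 2371 and 3075 CPM in tetramer libraries, against 437 and 548 CPM in resting libraries. Both tetramer values thus stood far above both resting values for each gene. Their rises were alike, with log2 fold changes of 2.47 ± 0.40 (SE, edgeR adjusted p = 5.61e-05) for Hsp90aa1 and 2.47 ± 0.40 (edgeR adjusted p = 6.55e-05) for Hsp90ab1. The ratio of Hsp90aa1 to Hsp90ab1 reads was 1.13 and 0.864 in tetramer libraries and 1.01 and 0.943 in resting libraries, so the ranges overlapped. Their coding sequences are 76.6% identical over 2171 aligned bases of the GENCODE transcripts.

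Among 7 Hsp70 genes, 2 rose, 1 fell and 4 did not pass. These are 28.6% higher and 14.3% lower, where 14.3% of all genes were called higher and 12.1% lower. Hspa8, the constitutive cytosolic Hsp70 also called Hsc70, had 2163 and 1650 CPM in tetramer libraries and 436 and 375 CPM in resting libraries. Hspa9, mortalin, the Hsp70 of the mitochondrial matrix that pulls imported proteins in, had 199 and 162 CPM in tetramer libraries, against 44.5 and 64.5 CPM in resting libraries. Neither gene's groups overlapped, and the log2 fold changes were 2.23 ± 0.39 for Hspa8 (SE, edgeR adjusted p = 0.000158) and 1.73 ± 0.38 for Hspa9 (edgeR adjusted p = 0.00149). Processed pseudogenes of Hspa8 and of the Hsp90 genes are known, and the authors' treatment of shared reads is not stated in the sources at hand. Hspa14, an atypical Hsp70 that acts at the ribosome with Dnajc2, had 69.0 and 43.1 CPM in tetramer libraries and 31.1 and 37.2 CPM in resting libraries, a difference that did not pass (log2 fold change 0.71 ± 0.42, edgeR adjusted p = 0.207). The testis-enriched Hspa2 had 9.0 and 12.9 CPM in tetramer libraries, against 6.01 and 2.14 CPM in resting libraries, and among all alternatives run was called only without resting library 4 (log2 fold change 2.36, edgeR adjusted p = 0.0137). Hspa13, a microsomal Hsp70, had overlapping groups, with 12.1 and 21.4 CPM in tetramer libraries and 28.6 and 7.05 CPM in resting libraries.

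The classical heat-inducible Hsp70 genes, Hspa1a and Hspa1b, were low, and the first of them was the 1 member called lower. Hspa1a had 2.66 and 4.25 CPM in tetramer libraries, against 5.18 and 22.2 CPM in resting libraries 4 and 5. Its neighbour Hspa1b had 1.64 and 3.24 CPM in tetramer libraries, against 2.69 and 16.2 CPM in resting libraries. Resting library 5 stood well above the other 3 libraries for both. Hspa1a was called lower (log2 fold change -1.98 ± 0.67 SE, edgeR adjusted p = 0.0303), and Hspa1b missed the threshold (-1.94 ± 0.74, edgeR adjusted p = 0.0530). Without resting library 5 the log2 fold changes were -0.56 for Hspa1a (edgeR adjusted p = 0.588) and -0.12 for Hspa1b (edgeR adjusted p = 0.931), and without resting library 4 they were -2.66 and -2.71, both called. The call of Hspa1a was also lost without tetramer library 4 (edgeR adjusted p = 0.263) or 5 (0.0741), in the test against a fold of 1.5 (0.0650) and by limma-voom (0.0875). The coding sequences of the pair are identical at 1915 of 1923 aligned bases (99.6%), so their reads can hardly be told apart; summed into 1 gene they held 21 and 37 counts in tetramer libraries and 38 and 180 counts in resting libraries (log2 fold change -1.97, edgeR adjusted p = 0.02). The summed erythroid markers were likewise highest in resting library 5, and their part in this difference was not tested.

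Hsp110 proteins, distant relatives of Hsp70 that release its nucleotide, were all above the resting range. Over all tested genes, 31.6% lay above both resting libraries in both tetramer libraries. Hsph1, also called Hsp105, had 119 and 267 CPM in tetramer libraries 4 and 5 and 52.0 and 42.1 CPM in resting libraries. Hspa4 had 253 and 330 CPM in tetramer libraries, against 152 and 94.0 CPM in resting libraries. For Hsph1 the tetramer libraries differed more from each other than the resting ones, yet both were higher. Hsph1 rose by a log2 fold change of 2.04 ± 0.41 (SE, edgeR adjusted p = 0.000629), which was 1.35 and not called without tetramer library 5 (edgeR adjusted p = 0.0558). Hspa4 rose by 1.25 ± 0.38 on the log2 scale (edgeR adjusted p = 0.0159), a call lost without resting library 5 (0.127) or tetramer library 5 (0.131), in the test against a fold of 1.5 (0.0668) and with library totals (0.0636). Hspa4l, the third of the family, had 14.7 and 16.8 CPM in tetramer libraries and 9.12 and 12.6 CPM in resting libraries (log2 fold change 0.54 ± 0.52, edgeR adjusted p = 0.471).

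**Figure D2:**
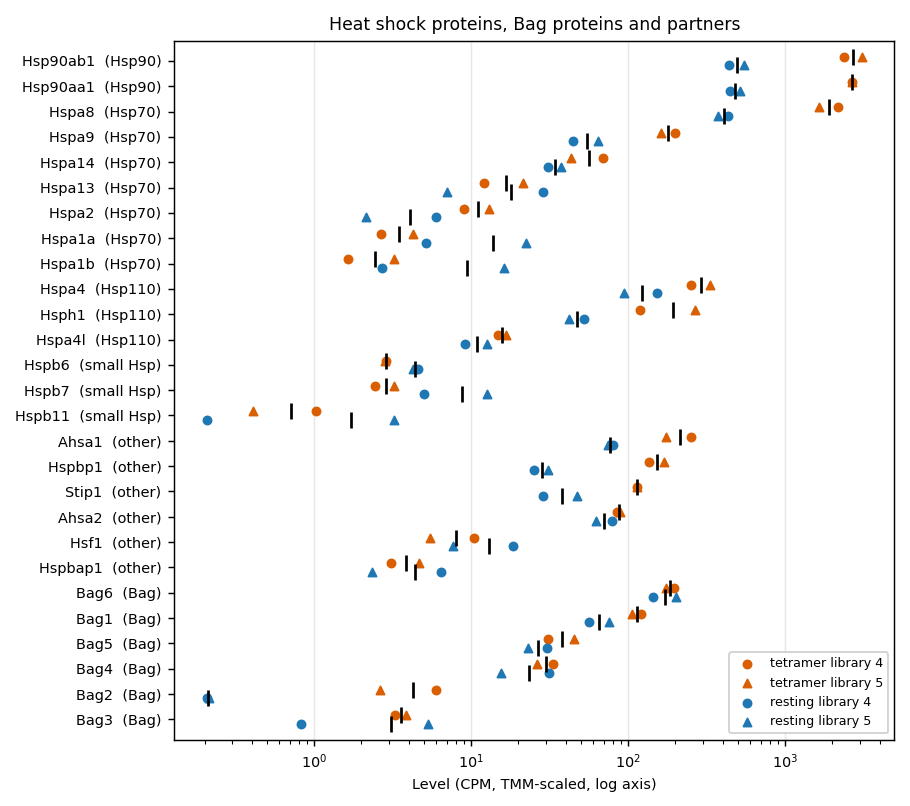
Level in CPM (log axis) of the heat shock protein, Bag and partner genes in each tetramer (orange) and resting (blue) library, grouped by role, with a black bar at the mean of each group of 2 libraries. Hsp90aa1, Hsp90ab1 and Hspa8 lie between 1650 and 3075 CPM in tetramer libraries and between 375 and 548 CPM in resting libraries, while Hspa1a and Hspa1b are highest in resting library 5.

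Heat shock elements, the sites that Hsf1 trimers bind, are repeats of GAA in alternating orientation, and the promoters of members that moved differently are shown for that reason. RefSeq promoter windows of GRCm38.p6, 250 bases before to 50 bases after a start, were matched to 47 of the 60 members; the other 13 (Hsp90aa1, Hsp90ab1, Hspa8, Hspa9, Hspa13, Hsf1, Bag4, Dnajc2, Dnajc5, Dnajc11, Dnajc12, Dnajc18 and Dnajc30) had no entry. The motif of 3 units, GAANNTTCNNGAA or its reverse complement TTCNNGAANNTTC, was in the windows of 2 of the 47 members (4.26%), Hsph1 and Dnajb6. Of 8592 tested genes with a promoter entry, 0.605% had it. The motif of 2 units, GAANNTTC or TTCNNGAA, each its own reverse complement and part of the longer motif, was in the windows of 11 members (23.4%), where 14.3% of 8592 tested genes with a promoter entry had it. Those 11 were Bag3, Dnaja1, Dnaja4, Dnajb4, Dnajb6, Dnajc10, Dnajc27, Hspa1a, Hspa1b, Hspb6 and Hsph1, of which Hsph1 and Dnajc27 rose and Hspa1a fell. The 250 bases before the first listed start follow from 5′ to 3′ for Hsph1 and Hspbp1, which rose, for Dnajb6, which did not pass the test, and for Hspa1a, with every motif match in capitals; they lie at chr5:149636337-149636586 (minus strand), chr7:4684982-4685231 (minus strand), chr5:29735648-29735897 (plus strand) and chr17:34972157-34972406 (minus strand) of GRCm38.p6, a later build than the mm9 of the counts.
Hsph1: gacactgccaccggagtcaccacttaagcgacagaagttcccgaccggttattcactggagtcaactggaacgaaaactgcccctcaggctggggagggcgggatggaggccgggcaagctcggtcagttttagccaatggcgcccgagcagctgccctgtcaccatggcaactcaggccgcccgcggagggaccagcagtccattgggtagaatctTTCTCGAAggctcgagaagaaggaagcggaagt
Hspbp1: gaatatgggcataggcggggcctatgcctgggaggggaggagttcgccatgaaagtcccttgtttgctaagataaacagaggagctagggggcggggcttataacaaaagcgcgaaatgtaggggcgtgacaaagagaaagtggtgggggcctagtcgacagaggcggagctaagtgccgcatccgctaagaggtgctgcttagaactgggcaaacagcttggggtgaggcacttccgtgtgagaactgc
Dnajb6: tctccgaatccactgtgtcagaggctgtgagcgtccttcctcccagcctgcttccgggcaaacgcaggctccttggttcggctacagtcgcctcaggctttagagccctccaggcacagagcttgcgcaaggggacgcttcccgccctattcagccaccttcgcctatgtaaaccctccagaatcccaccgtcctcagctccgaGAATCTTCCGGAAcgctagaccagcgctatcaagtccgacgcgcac
Hspa1a: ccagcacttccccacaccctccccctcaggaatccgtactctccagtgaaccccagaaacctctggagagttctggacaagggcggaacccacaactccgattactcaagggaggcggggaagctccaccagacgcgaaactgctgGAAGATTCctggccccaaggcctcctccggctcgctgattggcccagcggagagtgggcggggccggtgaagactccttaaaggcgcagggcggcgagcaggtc

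In Hsph1 the 2-unit match printed lies at bases 218 to 225 of the window, and its 3-unit match, TTCTGGAAAGTTC, begins 37 bases past that start and holds 2 further short matches. The 3-unit match of Dnajb6 lies at bases 205 to 217, counted from 1 at the 5′ end, and overlaps 2 shorter matches. Hspa1a has 1 short match at bases 147 to 154, and Hspa1b has the same one in a window identical at 296 of 300 bases. The printed stretch of Hspbp1 holds no match. A match in letters is a description and does not show that Hsf1 binds there. Only exact units at the stated spacing were searched, so elements with imperfect units were not counted. A low number of matches, or none, therefore does not show that a promoter lacks heat shock elements. Hsf1 itself had 10.4 and 5.46 CPM in tetramer libraries, against 18.4 and 7.69 CPM in resting libraries, and did not pass the test (log2 fold change -0.72 ± 0.59 SE, edgeR adjusted p = 0.384). Its groups overlapped, and without resting library 4 the log2 fold change was 0.06.

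The 6 members outside the Hsp90, Hsp70, Hsp110, small heat shock, Bag and DnaJ families included Hsf1. Of these 6, 3 rose and 0 fell by edgeR, DESeq2 and limma-voom alike. Over all tested genes 14.3% were called higher and 12.1% lower by edgeR. At an unadjusted edgeR p below 0.05, 0 of the 6 were lower, beside 19.2% of all genes. With only 6 members, 0 lower does not set this group apart from all genes. Hspbp1, a nucleotide exchange factor that also restrains Hsp70, had 135 and 169 CPM in tetramer libraries, against 25.3 and 31.0 CPM in resting libraries, a log2 fold change of 2.43 ± 0.39 (SE, edgeR adjusted p = 5.68e-05). Stip1, the adaptor between Hsp70 and Hsp90, had 114 and 113 CPM in tetramer libraries and 28.6 and 47.0 CPM in resting libraries (log2 fold change 1.58 ± 0.39, edgeR adjusted p = 0.00421). Ahsa1, the activator of the Hsp90 ATPase, had 250 and 175 CPM in tetramer libraries and 80.2 and 74.2 CPM in resting libraries (log2 fold change 1.46 ± 0.37, edgeR adjusted p = 0.00502). None of these 3 had overlapping groups, and the call of Ahsa1 was lost without tetramer library 4 (edgeR adjusted p = 0.126). Its paralog Ahsa2 had 85.5 and 88.6 CPM in tetramer libraries, against 78.5 and 62.6 CPM in resting libraries (log2 fold change 0.30 ± 0.37, edgeR adjusted p = 0.578). Hspbap1 stayed below 7 CPM in every library, with overlapping groups.

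Of 6 Bag genes, several of whose products release nucleotide from Hsp70, only Bag2 was called (16.7%, near the 14.3% of all genes called higher). Bag2, which also blocks the ubiquitin ligase Stub1, had 29 and 13 counts in tetramer libraries and 1 count in each resting library, the lowest count in the table. It passed the expression filter through its tetramer counts alone, so it could be called only in the higher direction. The ratio of scaled counts was 20.3 with an exact (Clopper-Pearson) 95% interval from 5.28 to 173, which covers counting error only (edgeR adjusted p = 0.00169). This call was lost without tetramer library 4 (log2 fold change 3.51, edgeR adjusted p = 0.137), and Bag2 did not reach the stricter filter. Bag1, which links Hsp70 to the proteasome, had 120 and 107 CPM in tetramer libraries, against 56.1 and 75.0 CPM in resting libraries, and did not pass (log2 fold change 0.79 ± 0.37, edgeR adjusted p = 0.116). Bag6, which guards hydrophobic membrane proteins in the cytosol, overlapped, at 197 and 174 CPM in tetramer libraries and 144 and 201 CPM in resting libraries. The heat-inducible Bag3 was low, at 3.27 and 3.84 CPM in tetramer libraries, against 0.829 and 5.34 CPM in resting libraries. Log2 fold changes of Bag4 and Bag5 were 0.35 and 0.51, neither past the threshold.

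Small heat shock proteins, holdases that keep unfolded proteins from clumping, were at most 12.6 CPM in any library. Hspb7 had 2.46 and 3.24 CPM in tetramer libraries and 4.97 and 12.6 CPM in resting libraries 4 and 5 (log2 fold change -1.62 ± 0.67 SE, edgeR adjusted p = 0.0735). Like Hspa1a it was highest in resting library 5, and it was called lower without resting library 4 (edgeR adjusted p = 0.00854) and with library totals (0.0301) but not without resting library 5 (0.433). Hspb6 had 2.86 and 2.83 CPM in tetramer libraries, against 4.56 and 4.27 CPM in resting libraries (log2 fold change -0.63 ± 0.66, edgeR adjusted p = 0.505). Hspb11, a protein of ciliary transport despite its name, had 5 and 2 counts in tetramer libraries and 1 and 15 counts in resting libraries and was below the expression filter. Without resting library 4 its log2 fold change was -2.11. It entered that fit through its 15 counts in resting library 5 alone, so its call there could only be in the lower direction. Hspb1 is not analysed here.

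DnaJ genes formed the bulk of the members, with 33 in the table and 31 tested. Called higher were 4, all of class C, and called lower were 0, while the median log2 fold change was 0.43. The 4 are 12.9% of the DnaJ genes tested, near the 14.3% of all genes called higher. At an unadjusted edgeR p below 0.05, 7 were higher and 0 lower, beside 19.5% and 19.2% of all genes, and DESeq2 and limma-voom each called 5 higher and 0 lower. Dnajb5 and Dnajc12, the 2 not tested, had at most 13 counts in any library. Dnajc2, also called zuotin or Mpp11, which with Hspa14 meets nascent chains at the ribosome exit, had 494 and 607 CPM in tetramer libraries, against 184 and 221 CPM in resting libraries. Dnajc19, the J protein of the inner membrane import motor that activates mortalin, had 111 and 104 CPM in tetramer libraries and 43.1 and 29.9 CPM in resting libraries. Their groups did not overlap, and they rose by log2 fold changes of 1.44 ± 0.37 (SE, edgeR adjusted p = 0.00521) for Dnajc2 and 1.55 ± 0.39 (edgeR adjusted p = 0.00462) for Dnajc19. Without tetramer library 4 the call of Dnajc19 was lost (edgeR adjusted p = 0.0513), and Dnajc2 was then the 1 DnaJ gene called. Fewer DnaJ genes were also called without tetramer library 5, and calls over all genes fell without either tetramer library, as given above.

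Dnajc27, a Rab-like GTPase with a J domain, had 10.6 and 9.10 CPM in tetramer libraries, against 2.69 and 0.855 CPM in resting libraries. Its counts were 52 and 45 in tetramer libraries and 13 and 4 in resting libraries. Its resting counts alone would not have passed the expression filter, so it was tested through the group where it was high. Its log2 fold change of 2.45 ± 0.70 (SE, edgeR adjusted p = 0.0110) was 3.50 without resting library 4, and the call was lost when any of the other 3 libraries was left out (edgeR adjusted p from 0.0514 to 0.137). Dnajc11, a mitochondrial membrane protein of cristae junctions, had 50.5 and 63.5 CPM in tetramer libraries and 17.4 and 32.5 CPM in resting libraries. Its rise of 1.19 ± 0.43 on the log2 scale lay close to the threshold (edgeR adjusted p = 0.0420) and was called in 1 of the 4 fits with a library left out, and neither with library totals nor against a fold of 1.5. Dnajc21, which matures the large ribosomal subunit, missed the threshold in the full comparison, at 60.4 and 71.6 CPM in tetramer libraries and 39.2 and 22.7 CPM in resting libraries (log2 fold change 1.09 ± 0.42, edgeR adjusted p = 0.0523). It was called higher in 6 of 13 other fits, namely with RLE scaling (size factors in the style of DESeq2), the stricter filter (at least 10 CPM in 2 libraries), DESeq2, limma-voom, the replicate block and without resting library 4.

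**Figure D3:**
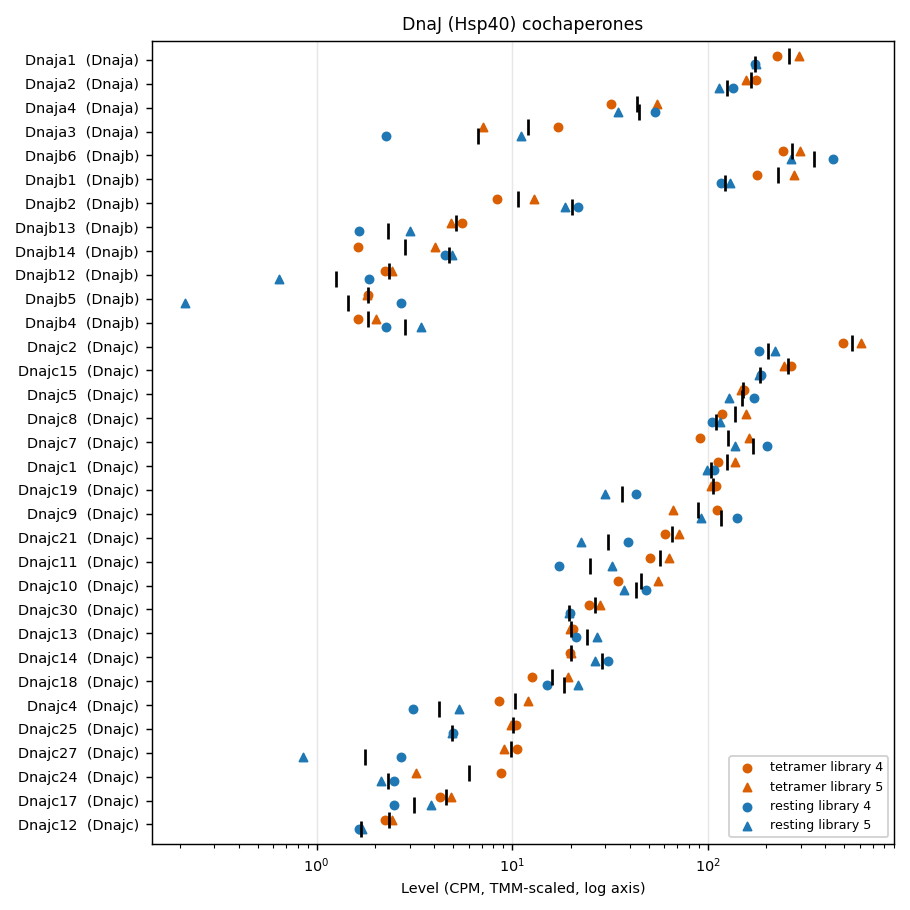
Level in CPM (log axis) of the 33 DnaJ genes in each tetramer (orange) and resting (blue) library, by class A, B and C, with a black bar at the mean of each group of 2 libraries. Dnajc2 reaches 607 CPM in tetramer library 5 and stands clear of its resting values, while Dnajb6, Dnajc5 and Dnajc7 overlap.

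The general cytosolic J proteins that feed clients to Hsp70 did not pass the test. Dnajb1, also called Hsp40 and itself heat-inducible, had 180 and 278 CPM in tetramer libraries, against 117 and 130 CPM in resting libraries (log2 fold change 0.89 ± 0.37 SE, edgeR adjusted p = 0.0740). Dnaja1, a farnesylated J protein, had 227 and 293 CPM in tetramer libraries and 175 and 177 CPM in resting libraries (log2 fold change 0.56 ± 0.36, edgeR adjusted p = 0.254). For these 2 genes and for Dnaja2 (log2 fold change 0.42 ± 0.36) both tetramer libraries were above both resting ones. The ratio of Dnajb1 to Hspa8 reads was 0.0832 and 0.169 in tetramer libraries, against 0.269 and 0.346 in resting libraries, without overlap. Dnajb6, a suppressor of aggregation, had 243 and 298 CPM in tetramer libraries and 436 and 266 CPM in resting libraries. Dnajc7, which binds Hsp70 and Hsp90 at once, had 91.7 and 164 CPM in tetramer libraries, against 202 and 138 CPM in resting libraries. Both overlapped (edgeR adjusted p = 0.484 and 0.446). Dnajb2, a J protein that passes clients to the proteasome, had 8.39 and 12.9 CPM in tetramer libraries and 21.8 and 18.6 CPM in resting libraries and did not pass (log2 fold change -0.92 ± 0.51, edgeR adjusted p = 0.187). Dnajb13, of sperm flagella and cilia, stayed below 6 CPM.

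By compartment, a grouping made after the values were seen, 6 members act in mitochondria. Of these, Hspa9, Dnajc19 and Dnajc11 rose (1 of the 6 without tetramer library 4), and Dnaja3, Dnajc15 and Dnajc30 did not pass, with log2 fold changes of 0.86, 0.48 and 0.43. Dnajc15, a relative of Dnajc19 with 68.5% of aligned coding bases identical, had 268 and 247 CPM in tetramer libraries, against 188 and 182 CPM in resting libraries (edgeR adjusted p = 0.338). Dnaja3 rested on resting library 5, without which it was called higher (log2 fold change 2.42, edgeR adjusted p = 0.0108). Of the 3 members at the ribosome, Dnajc2 rose and Hspa14 and Dnajc21 lay above the resting range without passing, although Dnajc21 was called in the other fits named above. The 8 members of the ER membrane or lumen that the rule kept (Hspa13, Dnajb12, Dnajb14, Dnajc1, Dnajc10, Dnajc14, Dnajc18 and Dnajc25) gave 0 calls by edgeR, DESeq2 or limma-voom and 0 at an unadjusted edgeR p below 0.05, with log2 fold changes from -0.73 to 1.04. Over all tested genes 14.3% were called higher and 12.1% lower, or 19.5% and 19.2% at an unadjusted edgeR p below 0.05. Groups of 6, 3 and 8 members are too small to set the compartments apart on such shares. The other class C members included Dnajc5, cysteine string protein, at 153 and 149 CPM in tetramer libraries and 172 and 129 CPM in resting libraries, and the histone chaperone Dnajc9, at 112 and 66.3 CPM in tetramer libraries and 142 and 93.0 CPM in resting libraries. Dnajc8, of the spliceosome, had 119 and 157 CPM in tetramer libraries, against 105 and 116 CPM in resting libraries, and also did not pass (edgeR adjusted p = 0.549). Dnajc4 and Dnajc24 had log2 fold changes of 1.29 and 1.37 at no more than 12.1 CPM and were not called, and Dnaja4, Dnajb4, Dnajc13 and Dnajc17 had values from -0.63 to 0.53 and did not pass.

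All members together took 1.02% and 1.12% of the counts in tetramer libraries, against 0.517% and 0.452% in resting libraries, without any scaling factor. Hsp90aa1, Hsp90ab1 and Hspa8 made up 62.6% and 60.3% of the member counts in tetramer libraries and 29.5% and 33.6% in resting libraries. The summed level of the other 57 members was 4304 and 4851 CPM in tetramer libraries, against 3150 and 2842 CPM in resting libraries. DnaJ genes took 0.234% and 0.281% of counts in tetramer libraries and 0.267% and 0.209% in resting libraries, with overlap. On the TMM scale their summed level did not overlap, at 2629 and 3069 CPM in tetramer libraries and 2309 and 1979 CPM in resting libraries. Per kilobase of exon in GENCODE, Hsp90ab1 averaged 1081 ± 198 CPM per kb, Hspa8 796 ± 151 and Hsp90aa1 789 ± 4.80 in tetramer libraries, and they averaged 195 ± 31.1, 169 ± 17.9 and 142 ± 15.5 in resting libraries (SD, n = 2 each). Next in tetramer libraries came Dnajc2 at 189 ± 27.3 and Ahsa1 at 154 ± 38.3 CPM per kb.

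**Figure D4:**
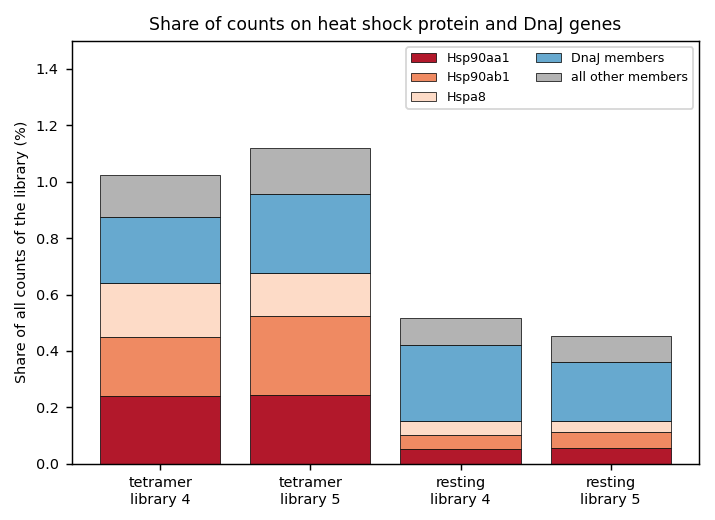
Share of each library's counts (percent, unscaled) that fell on the 60 members, split into Hsp90aa1, Hsp90ab1, Hspa8, the 33 DnaJ genes and all other members. The bars reach 1.02% and 1.12% in tetramer libraries and 0.517% and 0.452% in resting libraries, while the unscaled part of the DnaJ genes overlaps between the groups, as their TMM-scaled sum does not.

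Other genes of the same machinery were read from 3 further lists. Of 27 tested Hsp90 and Hsp70 cochaperones outside the member rule, 7 rose and 0 fell, with a median log2 fold change of 0.71 (4 rose without tetramer library 4). The 7 are 25.9% of the list, where 14.3% of all genes were called higher and 12.1% lower, and with library totals 7 rose and 3 fell, beside 10.5% and 19.9% of all genes. DESeq2 and limma-voom gave the same counts as the full comparison, and at an unadjusted edgeR p below 0.05 there were 12 higher and 2 lower, beside 19.5% and 19.2% of all genes. Ppid, the immunophilin cyclophilin 40, rose by 1.87 ± 0.39 and its relative Fkbp4 by 1.42 ± 0.38 (SE, log2 scale, edgeR adjusted p = 0.000822 and 0.00756). St13, the Hsp70-interacting protein Hip, had 138 and 143 CPM in tetramer libraries, against 41.8 and 58.3 CPM in resting libraries. Ruvbl1 and Ruvbl2, ATPases that work with Hsp90 in complex assembly, rose by 1.99 ± 0.43 and 2.10 ± 0.50 on the log2 scale, and Tomm70a and Nudc completed the 7. Only Ppid, St13 and Ruvbl1 of the 7 kept the call with each library left out in turn. The kinase cochaperone Cdc37 (129 and 123 CPM in tetramer libraries, 61.5 and 83.8 CPM in resting libraries) and the ubiquitin ligase Stub1 did not pass (edgeR adjusted p = 0.109 and 0.268). Of 8 prefoldins and related subunits, which hand nascent actin and tubulin to a chaperonin, 5 rose and 0 fell: Pfdn1, Pfdn4, Pfdn6, Uxt and Pdrg1, with Pfdn5 at -0.69 ± 0.36 on the log2 scale and not called. Pfdn4 had 10.6 and 3.44 CPM in tetramer libraries, against 2.49 and 0.214 CPM in resting libraries. Its resting values alone would not have passed the expression filter, and DESeq2 did not call it (DESeq2 adjusted p = 0.0621). The 5 are 62.5% of this list, where 14.3% of all genes were called higher and 12.1% lower. No gene of the list was lower at an unadjusted edgeR p below 0.05 or by DESeq2 or limma-voom. With library totals 1 was called lower, beside 19.9% of all genes. The count of 5 was 0 without tetramer library 4, 2 without resting library 4 or against a fold of 1.5, 3 without tetramer library 5, and 4 by DESeq2, with library totals, with the stricter filter or without resting library 5. Fewer of all genes were also called higher without tetramer library 4 or 5, as given above. Of all genes, 9.81% were called higher against a fold of 1.5 and 10.5% with library totals. The share was 14.2% by DESeq2 and 17.0% with the stricter filter. Of 6 tested genes of the heat shock response at large, Hspd1 and Hspe1, the mitochondrial chaperonin and its lid, rose by 3.13 ± 0.40 and 2.25 ± 0.39 on the log2 scale. Hmox1, heme oxygenase, fell to 3.68 and 6.68 CPM in tetramer libraries, against 15.1 and 29.9 CPM in resting libraries (edgeR adjusted p = 0.00740), and like Hspa1a it was highest in resting library 5. Its call was lost without resting library 5 (edgeR adjusted p = 0.0607) or tetramer library 4 (0.169). Hsf2, Hsbp1 and Ubb overlapped between groups and were not called. The 2 called higher and 1 called lower are 33.3% and 16.7% of this list, beside 14.3% and 12.1% of all genes.

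Calls held to different degrees when single libraries were left out. Hsp90aa1, Hsp90ab1, Hspa8, Hspa9, Hspbp1, Stip1 and Dnajc2, 7 of the 14 that rose, were called in each of 12 other fits (other scalings, filters and tools, a replicate block, a fold of 1.5 and each library left out). Log2 fold changes with a library left out ran from 2.38 to 2.61 for Hsp90aa1, from 2.27 to 2.66 for Hsp90ab1, from 2.04 to 2.42 for Hspa8 and from 2.27 to 2.61 for Hspbp1. They ran from 1.5 to 2.04 for Hspa9, from 1.28 to 2.01 for Stip1 and from 1.29 to 1.60 for Dnajc2. The other 7 (Hsph1, Hspa4, Ahsa1, Bag2, Dnajc19, Dnajc27 and Dnajc11) each lost the call without at least 1 library, as given above.

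**Figure D5:**
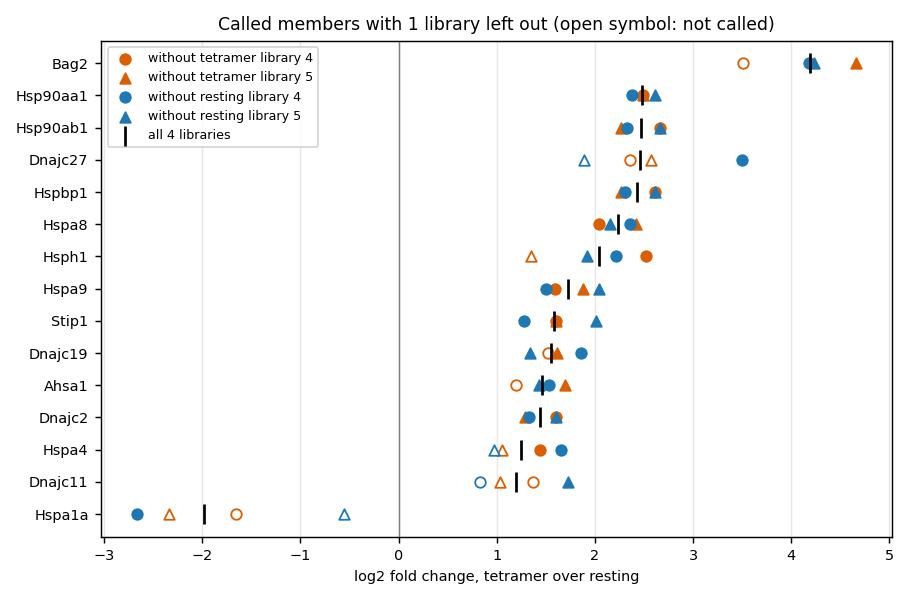
Log2 fold change (tetramer over resting, x axis) of the 15 called members with all 4 libraries (black bar) and with each library left out in turn; orange symbols leave out a tetramer library, blue a resting library, and open symbols are not called. Hsp90aa1 stays between 2.38 and 2.61, while Hspa1a ranges from -2.66 to -0.56.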

How the data were processed

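Per the submitters' processing notes, reads were processed with Bowtie2 and DESeq2 on the mouse build mm9, with no versions; the sources used here name no counting program, annotation or use of strand. The deposited values are whole-number counts per gene symbol, from polyadenylated RNA per the labels' protocols. Of 12021 rows, 1 with a cell that is not a number was left out. Column names show the group but not the replicate of the titles, so columns were matched to groups. Members and lists were chosen with earlier results of these data known, and 1 gene of the heat shock response list is not reported here. The test was edgeR 4.0.16's quasi-likelihood F test under R 4.3.3 (default expression filter, TMM, 11312 genes, adjusted p below 0.05), checked on simulated counts. SEs were taken from the F statistic. Totals per library (4168438 to 5495521 counts) set the precision of low genes. With 1 library left out, the lone library of a group is assumed to vary like the other group.

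The rule for named genes took 22 symbols regardless of value (21 in the table), the 3 smallest p per role class, members called lower, and the 10 largest called changes at a mean of at least 10 CPM; other members were named after their values were seen. DESeq2 1.42.0 and limma-voom (limma 3.58.1) served as alternatives. Exon lengths and coding sequences were from GENCODE M21 (GRCm38), promoters from RefSeq (GRCm38.p6); no coordinates of the counts are given, since no mm9 annotation was used here.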

Additional observations from a re-analysis of the deposited data

How the results depend on the processing

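Single genes named by the rule gave 367 of 393 values with the same direction and call over the 12 other fits and 1 chosen after seeing the data (Hspa1a and Hspa1b summed). Members called higher ranged from 9 to 15 when a library was left out and were 12 both against a fold of 1.5 and with library totals. Members called lower, 1 in the main comparison, ranged from 0 to 4 with a library left out, were 3 with library totals, and 0 with the stricter filter (at least 10 CPM in 2 libraries), and with limma-voom or the 1.5-fold test. All genes called higher (1620) ranged from 622 to 1629 and all called lower (1366) from 313 to 1488 with a library left out, and lower calls numbered 785 in the 1.5-fold test and 2250 with library totals. Log2 fold changes turned sign for Bag3 and Bag6 with library totals (-0.05 and -0.18), and with a library left out they ranged from -0.57 to 2.09 for Bag3, from -0.10 to 0.39 for Bag6 and from -1.24 to 0.06 for Hsf1; none was called, and the cause was not tested. The column numbers 4 and 5 occur in both groups, but nothing says that they pair libraries, and same-numbered deviations from the group means correlated at 0.05 across genes. With the number as a replicate block 15 members were higher and 1 lower (1693 and 1468 of all genes). Bag2, Hspb7 and Hspa1b had at most 29, 59 and 76 counts in any library; the part of depth in their results was not tested.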
